A study of Mus musculus with 9 samples.

Results

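Long intergenic noncoding RNAs (lincRNAs) are transcripts that start and end outside protein-coding genes and carry no long reading frame. The genes described here were chosen by their measured level: they are the genes that GENCODE M21 classes as lincRNA and whose mean over the 9 libraries reached at least 5 counts per 1000000 counts of the library (CPM). The rule took 44 genes, out of 5340 lincRNA genes among the 53801 genes of the files, 1352 of which had at least 1 count. Because the mean level chose them, the levels are a description, and tests are given only between groups.

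The libraries came from male C57BL/6J mice, 9 weeks old. Permanent focal ischemia was made by occlusion of the distal middle cerebral artery (dMCAO) together with the left common carotid artery. Monocytes/macrophages were sorted as CD11c-Ly6G-CD11b+CD45high cells from the ipsilesional brain hemisphere (3 libraries, each a pool of 5 mice) and from the blood of stroke mice (3 libraries, each of 1 mouse) 5 days after dMCAO, and from sham blood (3 libraries, each of 1 mouse that had sham surgery), for which the study's methods name no day. The labels name no transgene and no agent, and all groups shared the sort gate. Before the sort, brain tissue was dissociated and fractionated on a Percoll gradient, and blood was fractionated in Ficoll. Tissue and preparation therefore cannot be told apart in the brain comparisons.

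Some lincRNAs act in the nucleus, where they scaffold bodies such as speckles and paraspeckles. Others act near the place they are transcribed, bind proteins or small RNAs in the cytoplasm, or are spliced host transcripts from which a miRNA is cut. In monocytes and macrophages several are known to be induced by inflammatory stimuli, and a number of transcripts first classed as noncoding were later found to encode short proteins.

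Of the 44 genes, 32 are called lncRNA by RefSeq, 5 protein-coding (1810058I24Rik, Tmem250-ps, Gm37494, Gm26637 and Gm46430) and 1 a pseudogene (Gm10076), and 6 had no RefSeq match. They lay on 15 chromosomes, none on X. The longest transcript of each had a median length of 1764 bases, from 269 in Mir142hg to 20771 in Neat1, and a median GC content of 46.9%, from 38.6% to 69.1% in Gm26917. In 10 the longest transcript had 1 exon. The exons of 13 overlapped those of another gene, on the opposite strand in 12 of them. How reads in the shared bases were assigned or dropped is not stated in the sources used here, so reads of such pairs cannot be told apart. The genes overlapped by Malat1, Neat1, Gm36161, Tmem250-ps, Gm14005 and 2310001H17Rik had at most 0.0577 CPM. A low count of the overlapped gene does not show that the member lost no shared reads.

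Just inside the rule lay 1700096K18Rik and Gm26637 (5.20 CPM each) and Gm46430 (5.12 CPM), and just outside it Gm20300 (4.92), D730003I15Rik (4.76) and AI504432 (4.75). The mean reached 5 CPM in all 3 groups for 34 genes and in fewer groups for the other 10, among them Gm36738, 1700096K18Rik and Gm5086. No gene had fewer than 31 counts in any library, and all 44 passed the filter on low counts in every comparison. Together they took 0.166% to 0.259% of the counts in sham blood, 0.253% to 0.532% in stroke blood and 0.190% to 0.203% in brain. Without Gm26917, the most abundant, these shares were 0.125% to 0.152%, 0.135% to 0.173% and 0.133% to 0.180%, so the ranges of stroke blood and brain then overlapped.

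Per length, AW112010 and Gm26917 had the highest level, 348 CPM per kb of exon each over all libraries, followed by Gm28875 (88.7 CPM per kb), Gm36161 (86.8), AI839979 (55.4) and Gm10076 (52.8). Malat1, behind only Gm26917 and AW112010 by CPM, reached 25.8 CPM per kb over its 6983 exonic bases, below the short Mir142hg (30.7 CPM per kb at 8.25 CPM). In brain the order per kb was led by AW112010 with 516 ± 155 CPM per kb (SD, n = 3) and Gm28875 with 146 ± 33.1, and in stroke blood by Gm26917 with 679 ± 377 and AW112010 with 312 ± 121, a pair whose spreads overlapped. Such orders between genes are of counts. How evenly the cDNA kit (SMART-Seq HT) captured each RNA was not tested.

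The level was highest in stroke blood for 24 genes, in brain for 13 and in sham blood for 7, and it was lowest in brain for 25. This tally is of CPM of the library total. The same tally over all genes is not given here, so it is not shown to be particular to lincRNAs. Libraries of a group differed by a median coefficient of variation of 18.2% in sham blood, 20% in stroke blood and 24.5% in brain. The steadiest were 5031425E22Rik in stroke blood (1.92%) and 2310040G24Rik in sham blood (2.23%), and the most variable Gm19585 in stroke blood (100.3%) and Gm26522 in sham blood (76.1%). Brain replicate 1 was the lowest of the 3 brain libraries for 24 genes, and stroke blood replicate 2 the lowest of its group for 27.

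**Figure D1:**
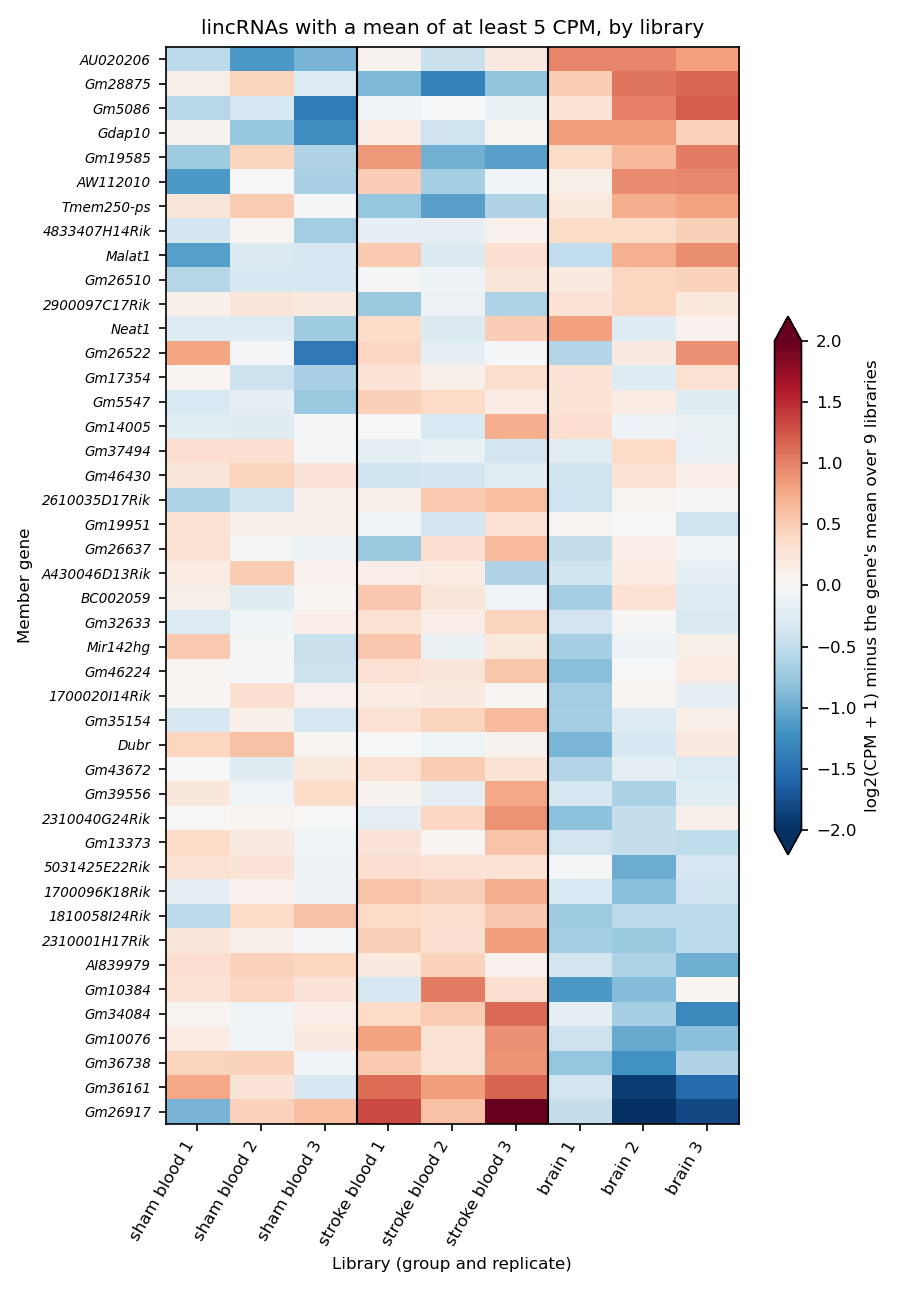
Heat map of the 44 lincRNAs (rows) in the 9 libraries (columns, 3 per group), coloured by log2(CPM + 1) minus the gene's own mean over the 9 libraries, with rows ordered by the difference between brain and blood. AU020206 and Gm28875 stand at the top, high in all 3 brain libraries, and Gm36161 and Gm26917 at the bottom, with brain replicate 1 paler than the other brain libraries.

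Total counts were between 18475118 and 22623578 per library, and 3 counts corresponded to 0.133 to 0.162 CPM. The 10 monocyte markers summed to 10379.9 to 12380.4 CPM in blood and to 7399 to 8389.8 CPM in brain, below every blood library, with 4 of the 10 lower in brain than in stroke blood and 3 than in sham blood. In turn 4 of 8 macrophage markers were DEGs higher in brain (13778 to 20194 CPM, against 5408 to 6846 CPM in blood). All 10 microglia markers were higher in brain than in either blood group, with a summed level of 1547 to 4334 CPM, lowest in brain replicate 1, and 135 to 205 CPM in blood. By contrast 6 of 6 erythroid and 6 of 7 platelet markers were lower in brain. Their sums were 4.16 to 14.5 CPM and 37 to 82.9 CPM there, and sham blood replicate 1 stood apart from the other blood libraries, with 1221 CPM for erythroid markers against 13766 to 34113 CPM and 20.5 CPM for platelet markers against 325 to 701 CPM. Dendritic cell markers (6 and 3 of 7 higher) summed to 755 to 946 CPM in brain and 88.9 to 338 CPM in blood, and neuron markers to at most 1.89 CPM. Border-associated macrophage markers (5 of 7 higher against either blood group) summed to 117 to 324 CPM in brain and 51.9 to 188 CPM in blood, and those of astrocytes, oligodendrocytes, choroid plexus and endothelium (4 and 3 of 6 higher) to 195 to 467 CPM and 187 to 336 CPM. Pf4 counts both as a border-associated macrophage and as a platelet marker. It averaged 73.1 CPM in sham blood, 84.2 in stroke blood and 56.7 in brain. Siglech counts both as a microglia and as a dendritic cell marker. Of the neutrophil markers 5 of 7 were higher and 1 lower in brain than in stroke blood, and 2 of 8 higher and 1 lower than in sham blood. They summed to 888 to 1465 CPM in brain and 437 to 774 CPM in stroke blood, and sham blood replicate 3, at 2966 CPM, stood apart from the other sham blood libraries (747 and 936 CPM). The part of these cells in the differences below was not tested. In bulk RNA, fewer cells of a type and less RNA per cell cannot be told apart. Xist, a lincRNA of the inactive X chromosome, had 0 counts in every library, which allows up to 0.162 CPM in the shallowest (counting error only).

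Brain macrophages were then compared with stroke blood monocytes. More of the lincRNAs were lower in brain than higher: Gm26917, Gm36161, Gm36738, Gm10076, Gm34084, 1700096K18Rik, 2310001H17Rik, 1810058I24Rik and AI839979 fell, and Gm28875 and Tmem250-ps rose. Differentially expressed genes (DEGs) had to pass 0.05 for the p of edgeR's quasi-likelihood test, adjusted over all genes tested by the Benjamini-Hochberg method, and to differ by more than 1 on the log2 scale in either direction. By this rule 2 of the 44 were higher (4.55%), where 13.1% of all 13189 genes tested were, and 9 were lower (20.5%), where 7.86% of all genes were. The median log2 fold change of the 44 was -0.51 and that of all genes 0.06. At an adjusted p below 0.05 and any fold, 4 were higher and 14 lower, against 17.5% and 13.1% of all genes. The CPM of the groups did not overlap for 7 higher and 17 lower genes, against 31.9% and 17.3% of all genes. Restricted to the 34 genes at 5 CPM in each group, 2 were higher and 7 lower. Without brain replicate 1, 3 of the 44 were higher and 11 lower. The share of all genes called without that library is not given here, so the latter counts cannot be set against it.

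Against sham blood, the same 3 brain libraries gave fewer calls. AU020206, Gm5086 and AW112010 rose, and Gm36161, Gm36738, AI839979 and Gm10076 fell. DEGs were 3 of the 44 higher (6.82%), where 9.75% of all 13020 genes tested were, and 4 lower (9.09%), where 3.67% of all genes were, with a median log2 fold change of -0.32 for the 44 and 0.01 for all genes. Among the 34 genes at 5 CPM in each group, 2 were higher and 3 lower. At any fold, 3 were higher and 7 lower, where 12.1% and 7.68% of all genes were, and the groups did not overlap for 7 higher and 11 lower genes, against 27.4% and 14.2%. Single libraries decided several calls: 1 gene was higher without sham blood replicate 3, brain replicate 2 or brain replicate 3, and 2 were lower without sham blood replicate 2 or 3 and 1 without brain replicate 2, while 4 were higher and 6 lower without brain replicate 1. Shares of all genes called in fits without a library are not given here, so those counts cannot be set against them. The brain libraries are shared with the comparison above, so the directions are not independent.

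Between stroke blood and sham blood, the lincRNAs gave no DEG: 0 were higher and 0 lower, where 1 of 12664 genes (0.0079%) was higher and 0% lower by edgeR. Yet 35 of the 44 fold changes were positive, with a median of 0.39 against -0.03 for all genes. At an unadjusted p below 0.05, 15 were higher and 4 lower, where 6.51% and 5.97% of all genes were. The CPM did not overlap for 15 higher and 5 lower genes, against 8.23% and 10.5% of all genes. DESeq2 called 2 of the 44 lower, Gm28875 and Tmem250-ps, and none higher. The share of all genes that DESeq2 called is not given here, so this count cannot be set against it. With 3 libraries in each group, a two-sided exact permutation test on a single gene has 0.1 as its smallest p, which is why none is given.

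**Figure D2:**
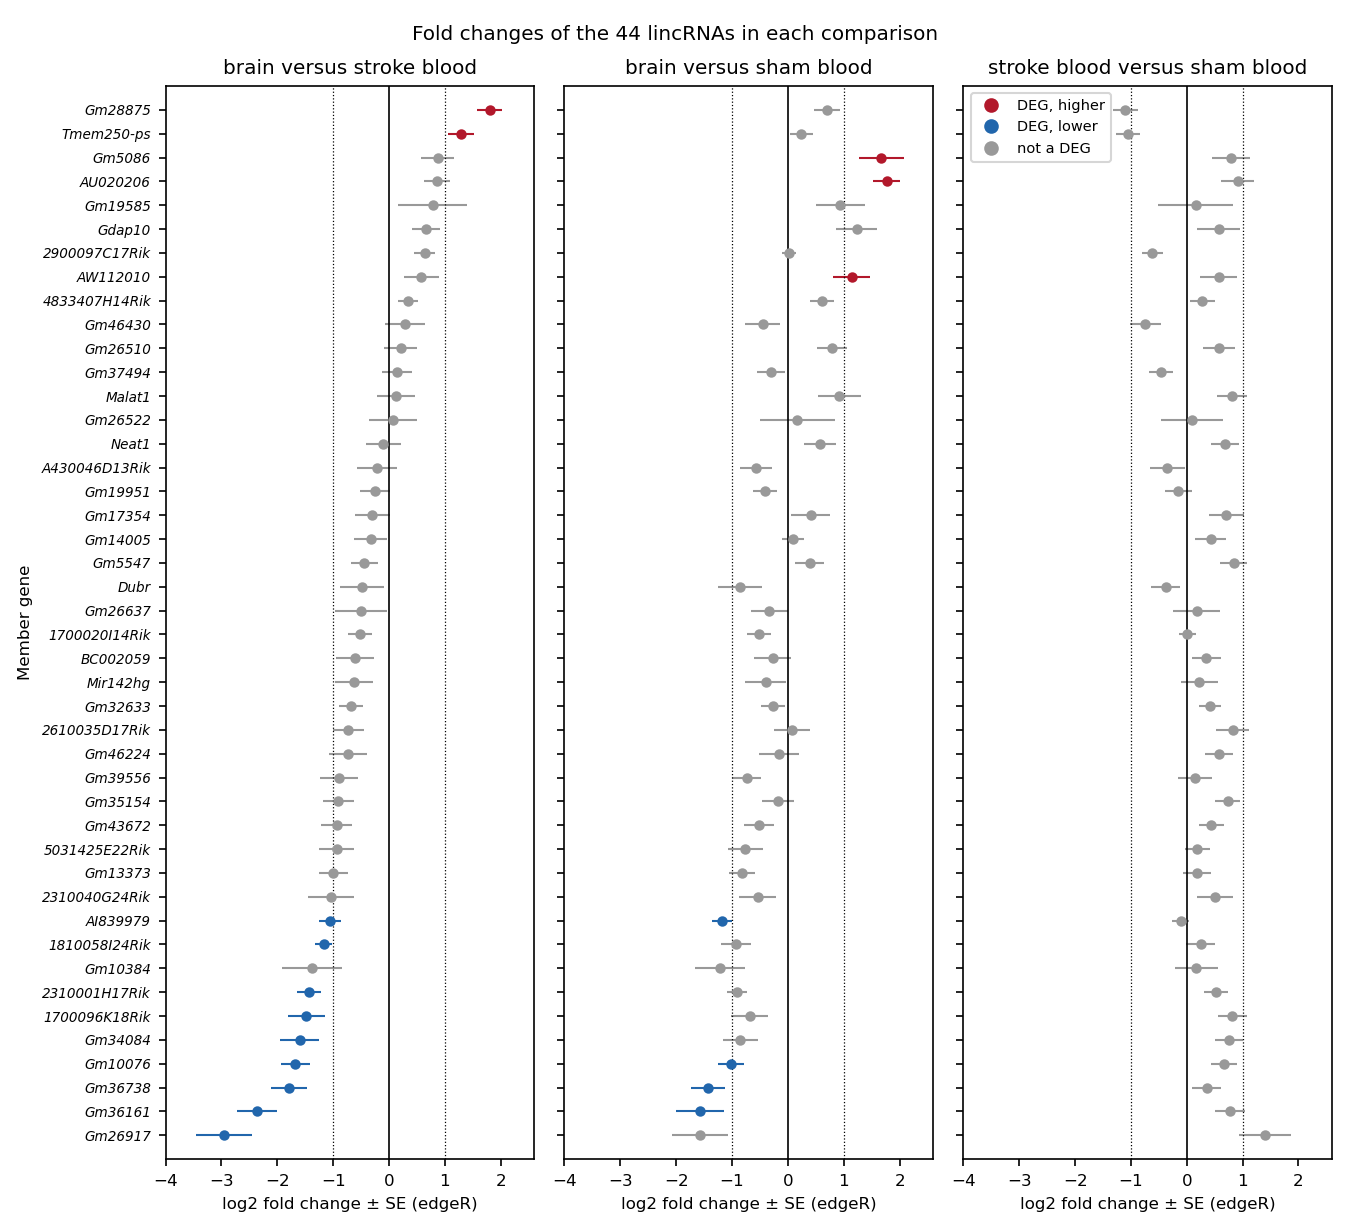
Log2 fold changes (horizontal axis, edgeR estimate ± SE, n = 3 libraries per group) of the 44 lincRNAs in the 3 comparisons, in the same order in each panel, with dotted lines at the threshold of 1. In brain versus stroke blood 2 genes are called higher and 9 lower, in brain versus sham blood 3 and 4, and in stroke blood versus sham blood none, although most points of that panel lie to the right of 0.

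Other noncoding classes of at least 5 CPM gave medians on the same sides of 0. In brain versus stroke blood the median log2 fold change was -0.69 for 26 antisense RNA genes and -0.55 for 34 processed transcripts, while that of 8801 protein-coding genes was 0.07. Between stroke and sham blood the medians were 0.39 for 25 antisense genes, 0.20 for 34 processed transcripts and -0.07 for 8766 protein-coding genes. No difference between classes was tested, and the shift is not shown to be particular to lincRNAs.

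**Figure D3:**
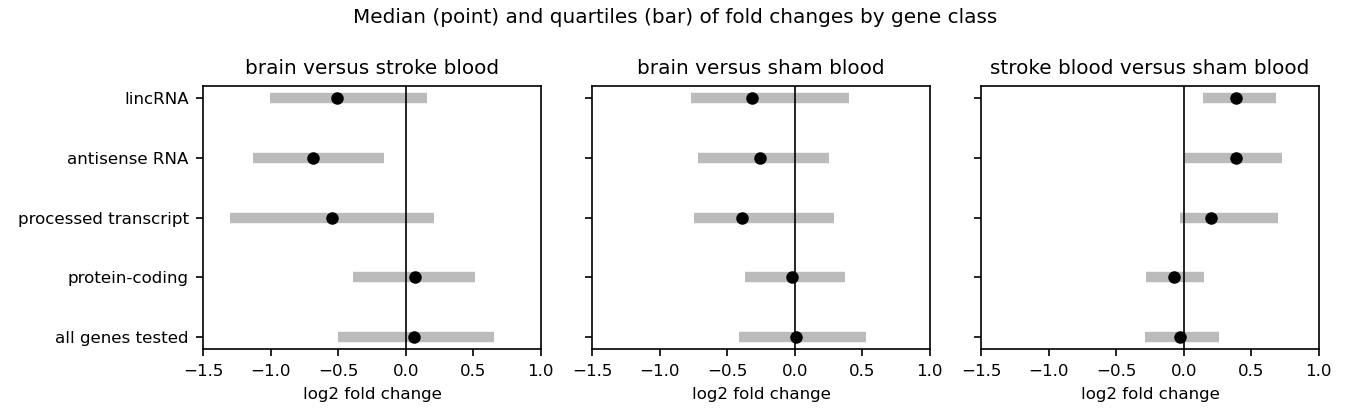
Median (point) and quartiles (bar) of the log2 fold changes of genes of at least 5 CPM by GENCODE class, and of all genes tested, in the 3 comparisons. The 3 noncoding classes have medians of -0.51, -0.69 and -0.55 in brain versus stroke blood and of 0.39, 0.39 and 0.20 in stroke versus sham blood, with protein-coding genes near 0.

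The RNAs with known roles in the nucleus and cytoplasm were measured at high counts. Malat1, a speckle-associated RNA at chr19:5795690-5802672, had 75.9, 134 and 131 CPM in sham blood, 236, 135 and 208 in stroke blood and 117, 269 and 313 in brain. Brain overlapped both blood groups, with replicate 1 below every stroke blood library. The log2 fold change was 0.12 (SE 0.34, adjusted p = 0.824, edgeR) against stroke blood and 0.92 (SE 0.38, adjusted p = 0.125) against sham blood, the latter 1.25 (adjusted p = 0.0202) without brain replicate 1. Neat1, the scaffold of paraspeckles, lies close by on the same chromosome and had 23.7 to 32.8 CPM in sham blood, 31.9 to 55.6 in stroke blood and 70.4, 32.8 and 41.6 in brain. In contrast to Malat1, its highest brain library was replicate 1, and neither difference passed the test (log2 fold change -0.10 and 0.57, adjusted p = 0.833 and 0.203), the first of them 0.06 when scaled by library size only.

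2900097C17Rik, named Norad in RefSeq, binds Pumilio proteins in the cytoplasm. It had 89.1, 98.7 and 95.9 CPM in sham blood, 49.2, 76.3 and 54.0 in stroke blood and 102, 113 and 96.3 in brain. All 3 stroke blood libraries lay below every other library, and its log2 fold change in brain was 0.64 against stroke blood (SE 0.19, adjusted p = 0.0319, below the fold threshold) and 0.02 against sham blood (adjusted p = 0.945). A stretch of 2537 bases is 99.2% identical to Gm7292, which had 0.245 CPM, so reads between them are uncertain. 1700020I14Rik, Oip5os1 in RefSeq and known as Cyrano for directing the decay of the miRNA miR-7, had 58.1 to 71.0 CPM in sham blood, 57.9 to 64.1 in stroke blood and 34.4, 58.4 and 50.4 in brain, with a log2 fold change of -0.52 against either blood group (adjusted p = 0.0931 and 0.136). Of the nuclear and chromatin list of 25 lncRNAs, 24 were in the files under the listed symbol and 3 were among the 44. The remaining one, Oip5os1, is 1700020I14Rik and was not counted. In brain versus stroke blood, 1 of the 11 tested was higher (Pvt1, log2 fold change 4.50, at 2.6 CPM in brain) and 1 lower (Dleu2, -1.20). Of all genes tested 13.1% were higher and 7.86% lower. In brain versus sham blood 0 of 12 were higher and 1 lower, where 9.75% and 3.67% of all genes were. In stroke versus sham blood 0 of 10 were called (medians of the comparisons -0.07, 0.22 and 0.22).

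Among the immune-response lincRNAs, AW112010 and AU020206 rose in brain against sham blood. AW112010, a transcript induced in macrophages that is also translated from a non-canonical start, lies at chr19:11047612-11055808. It had 113, 251 and 160.1 CPM in sham blood, 352, 158 and 242 in stroke blood and 271, 482 and 492 in brain. Every brain library exceeded every sham blood library, while stroke blood overlapped both other groups. Its log2 fold change was 1.14 against sham blood (SE 0.33, adjusted p = 0.047, edgeR) and 0.58 against stroke blood (SE 0.31, adjusted p = 0.19). The first call was lost without sham blood replicate 1 (adjusted p = 0.0983), sham blood replicate 3 (0.131), brain replicate 2 (0.136) or brain replicate 3 (0.137). Over the 9 libraries the 3 genes whose log2(CPM + 1) was most correlated with AW112010 were Klra7 (Pearson r = 0.981), Gzma (0.964) and Ccl5 (0.962), genes of NK and cytotoxic T cells. The 10 T and NK cell markers summed to 286 to 743 CPM in sham blood, 299 to 968 in stroke blood and 780.4 to 1590.2 in brain, with the highest value of each group in the library with the highest AW112010, and 2 of the 10 were DEGs against sham blood, both higher. Their part in the difference was not tested.

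AU020206, at chr7:75769038-75782099, had 10.3, 6.25 and 7.52 CPM in sham blood, 16.0, 10.9 and 17.3 in stroke blood and 30.9, 30.9 and 27.5 in brain. None of the 3 groups overlapped, and the brain libraries agreed within a coefficient of variation below that of either blood group. Its log2 fold change was 1.77 against sham blood (SE 0.24, adjusted p = 0.00338), kept in all 6 fits that left out 1 library, 0.86 against stroke blood (SE 0.23, adjusted p = 0.0208, below the fold threshold) and 0.91 between stroke and sham blood (adjusted p = 0.309). Its neighbour Akap13 had a log2 fold change of -0.69 (adjusted p = 0.00948) in brain versus stroke blood, the opposite sign.

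Gm14005, Morrbid in RefSeq, is a myeloid RNA known to repress the neighbouring pro-apoptotic gene Bcl2l11. It had 25.1 to 29.2 CPM in sham blood, 29.9, 23.8 and 49.9 in stroke blood and 37.9, 27.6 and 26.7 in brain. These ranges overlapped, with log2 fold changes of -0.33 (adjusted p = 0.426) and 0.09 (adjusted p = 0.778) in brain against stroke and sham blood. Bcl2l11 itself had log2 fold changes of 0.37 (adjusted p = 0.161) and 0.46 (adjusted p = 0.179). All 16 genes of the immune-response list were in the files, 3 of them among the 44. GENCODE does not class all of them as lncRNA. Among those tested, B430306N03Rik, Platr17 and 4930523C07Rik are classed as protein-coding and Gm12250 as a processed pseudogene. In brain versus stroke blood 1 of 11 tested was higher (AI506816, log2 fold change 1.27) and 2 were lower (Gm15987, -1.37, and Platr17, -1.31), with a median of -0.33. Of all genes tested 13.1% were higher and 7.86% lower. In brain versus sham blood 2 of 10 were higher, AW112010 and AU020206, and 0 lower (median -0.20), where 9.75% and 3.67% of all genes were. In stroke versus sham blood 0 of 10 were called (median 0.30).

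1810058I24Rik, at chr6:35252654-35263496, encodes a short mitochondrial protein that takes part in inflammasome activation in macrophages, and RefSeq calls it protein-coding. It had 77.5, 145 and 168 CPM in sham blood, 148, 143 and 162 in stroke blood and 68.1, 77.7 and 77.7 in brain. All brain libraries lay below all stroke blood libraries, but sham blood replicate 1 was at the brain level. The log2 fold change was -1.17 against stroke blood (SE 0.15, adjusted p = 0.00061), kept in all 6 fits without 1 library, and -0.93 against sham blood (SE 0.27, adjusted p = 0.0472), under the fold threshold.

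The promoters of the members called in opposite directions are shown to place known motifs beside these levels: AW112010 and AU020206, higher in brain than in sham blood, and AI839979 and Gm36738, lower in brain than in either blood group. Each runs from 250 bases before to 50 bases after the RefSeq start (GRCm38.p6), printed 5′ to 3′ on the gene's strand, and capitals mark motif matches on either strand. For AW112010 the RefSeq start lies inside the GENCODE span.
AW112010, chr19:11050517-11050816, - strand: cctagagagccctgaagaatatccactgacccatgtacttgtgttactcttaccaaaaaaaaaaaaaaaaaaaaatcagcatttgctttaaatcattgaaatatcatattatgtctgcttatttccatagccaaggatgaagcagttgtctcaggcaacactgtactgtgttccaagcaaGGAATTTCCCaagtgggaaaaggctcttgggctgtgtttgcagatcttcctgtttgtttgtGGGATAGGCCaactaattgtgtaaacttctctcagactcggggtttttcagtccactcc
AU020206, chr7:75782071-75782370, - strand: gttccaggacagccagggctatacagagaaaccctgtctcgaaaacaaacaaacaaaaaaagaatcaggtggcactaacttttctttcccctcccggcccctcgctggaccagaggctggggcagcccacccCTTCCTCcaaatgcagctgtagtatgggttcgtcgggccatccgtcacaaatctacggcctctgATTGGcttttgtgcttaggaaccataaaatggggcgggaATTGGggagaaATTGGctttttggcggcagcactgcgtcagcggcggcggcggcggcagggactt
AI839979, chr5:31571348-31571647, - strand: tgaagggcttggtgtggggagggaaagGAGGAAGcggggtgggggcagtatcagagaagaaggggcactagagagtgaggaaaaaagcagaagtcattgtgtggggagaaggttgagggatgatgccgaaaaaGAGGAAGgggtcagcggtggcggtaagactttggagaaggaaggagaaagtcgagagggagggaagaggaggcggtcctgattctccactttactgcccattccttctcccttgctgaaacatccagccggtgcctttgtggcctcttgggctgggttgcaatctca
Gm36738, chr15:78581540-78581839, - strand: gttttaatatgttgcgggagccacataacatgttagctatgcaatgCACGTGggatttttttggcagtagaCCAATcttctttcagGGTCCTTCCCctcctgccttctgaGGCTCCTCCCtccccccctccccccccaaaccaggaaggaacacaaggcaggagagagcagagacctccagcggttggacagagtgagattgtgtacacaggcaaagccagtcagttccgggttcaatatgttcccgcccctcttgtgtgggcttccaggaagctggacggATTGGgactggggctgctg
Motifs searched on both strands were those of NF-kB (GGGA, any 4 bases, CC), PU.1 (GAGGAAG), AP-1 (TGANTCA), the interferon response element ISRE (GAAA, any 2 bases, GAAA), the CCAAT box (CCAAT) and the E-box (CACGTG). AW112010 held NF-kB matches starting 70 and 9 bases before the start, AU020206 a PU.1 match and 3 CCAAT boxes, AI839979 PU.1 matches starting 223 and 117 bases before the start, and Gm36738 an E-box, a pair of CCAAT boxes and a pair of NF-kB matches. No match in the 4 overlapped that of another motif. In RefSeq 32 of the 44 matched 48 promoters. The NF-kB letters were in 18.8% of these 48 and 20.7% of all 32851 promoters, PU.1 in 18.8% and 13.6%, AP-1 in 4.17% and 7.81%, ISRE in 6.25% and 3.44%, CCAAT in 41.7% and 37.4%, and the E-box in 2.08% and 7.15%. A match describes letters only.

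Mir142hg was the only member with a miRNA or snoRNA gene inside it on the same strand: Mir142, in its intron at chr11:87756864-87756927. The miRNA is a blood-cell miRNA, shown here because the host is the route by which it is made, and the seed (bases 2 to 8) is in capitals. The arms have different seeds.
mmu-miR-142a-5p: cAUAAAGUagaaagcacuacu
mmu-miR-142a-3p: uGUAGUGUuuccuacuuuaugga
The host had 11.8, 7.75 and 5.58 CPM in sham blood, 12, 7.10 and 9.39 in stroke blood and 4.64, 7.34 and 8.65 in brain. Its groups overlapped throughout (log2 fold change -0.62 and -0.40 in brain, adjusted p = 0.195 and 0.482), and the counts say nothing of the mature miRNA. Of the 13 miRNA host lncRNAs listed, all in the files and 1 a member, 6 were tested. The list also holds Mirt1 and Mirt2, named for myocardial infarction and not miRNA hosts, of which Mirt1 was tested and not called. In brain versus stroke blood 0 of the 6 were higher and 1, F630028O10Rik, was lower (-1.72), where 13.1% and 7.86% of all genes were. In brain versus sham blood Mir22hg was higher (1.22) and F630028O10Rik lower (-1.31), where 9.75% and 3.67% of all genes were. In stroke versus sham blood none was called (medians of the comparisons -0.41, 0.24 and 0.64).

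snoRNA host RNAs, from whose introns the guides of rRNA modification are cut, held none of the 44 genes. GENCODE classes those at or above 5 CPM, such as Gas5 (99.1 CPM) and Zfas1 (27.1 CPM), as processed transcripts and not as lincRNAs. Of the 20 listed, 17 were in the files. In brain versus stroke blood, 1 of 13 tested was higher (Snhg15, log2 fold change 2.78) and 4 were lower, Gas5 (-1.46), Zfas1 (-1.44), Snhg8 (-1.62) and Snhg14 (-3.69, at 0.461 CPM), where 13.1% and 7.86% of all genes tested were. In brain versus sham blood 1 of 12 was higher (Snhg15, 3.07) and 0 were lower, where 9.75% and 3.67% of all genes were. In stroke versus sham blood 0 of 13 were called (medians of the comparisons -0.59, 0.23 and 0.75).

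Gm26917, Gm36161 and Gm10076 fell in brain, and each adjoins or nearly copies another gene. Gm26917, the most abundant member, lies at chr17:39843013-39846341 (GRCm38, + strand). It had 409, 1071 and 1189.9 CPM in sham blood, 1962, 1179.6 and 3635 in stroke blood and 564, 196 and 223 in brain. Each brain library was below each stroke blood library, and brain overlapped sham blood through brain replicate 1 and sham blood replicate 1. The log2 fold change was -2.96 against stroke blood (SE 0.50, adjusted p = 0.00249, edgeR), -1.57 against sham blood (SE 0.50, adjusted p = 0.063) and 1.40 between stroke and sham blood (SE 0.47, adjusted p = 0.327). Without brain replicate 1 the second was -2.20 (adjusted p = 0.0216).

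Gm26917 ends 11 bases before CT010467.1, which GENCODE annotates as rRNA (chr17:39846353-39848827) and where RefSeq places the 18S rRNA locus Rn18s-rs5. CT010467.1 averaged 1208 CPM in sham blood, 3805 in stroke blood and 393 in brain, with a log2 fold change of -3.44 in brain versus stroke blood (adjusted p = 0.000197). The ratio of Gm26917 to CT010467.1 was 0.483 to 1.06 over the 9 libraries. Gm23935 and Mir6236, short genes annotated as miRNAs, were lower in brain versus stroke blood (log2 fold change -4.08, adjusted p = 0.00452, and -2.34, adjusted p = 0.0333). Neither passed the test against sham blood (-2.29, adjusted p = 0.0774, and -1.19, adjusted p = 0.314). Brain replicate 1 overlapped sham blood for both. It had 210.1 CPM of Gm23935, against 30.5 and 37.4 in the other brain libraries, and 60.7 of Mir6236, against 8.53 and 8.24. Whether the Gm26917 counts come from rRNA or its precursor was not tested. The list of 16 rRNA or satellite loci had 3 tested genes. Of these 2 were lower in brain versus stroke blood and 1 versus sham blood, where 7.86% and 3.67% of all genes were. The medians were -2.96 and -1.57, and 0 were called between blood groups (median 1.40).

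Gm36161, at chr13:120010390-120018931, is 95.7% identical over 1541 bases to the protein-coding gene Gm21188, so its counts are uncertain. It had 179, 125 and 83.1 CPM in sham blood, 228, 187 and 235 in stroke blood and 79.4, 27.3 and 35.1 in brain. Brain did not overlap either blood group, although brain replicate 1 came within a few CPM of sham blood replicate 3. The log2 fold change was -2.36 against stroke blood (SE 0.36, adjusted p = 0.00139) and -1.58 against sham blood (SE 0.43, adjusted p = 0.0381). Among the 6 fits that left out 1 library, the second call was kept only without brain replicate 1 (adjusted p = 0.0105). It was lost without sham blood replicate 1, 2 or 3 (adjusted p = 0.104, 0.0864 and 0.0517) and without brain replicate 2 or 3 (0.104 and 0.12). Over all 12 alternatives 6 kept this call and 6 lost it. Gm21188 fell less (-1.27 and -0.75). The ratio of the pair was 1.17 to 1.69 in blood, 1.23 in brain replicate 1, and 0.437 and 0.542 in brain replicates 2 and 3.

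Gm10076, at chr14:105681828-105682211, is 99.5% identical over 383 bases to Rpl41, a ribosomal protein gene with 560 CPM, and RefSeq calls it a pseudogene. All 75 bases that encode the protein of Rpl41 occur in Gm10076 from base 42 to 116 without a mismatch, and are shown because reads within them cannot be assigned.
Rpl41 and Gm10076: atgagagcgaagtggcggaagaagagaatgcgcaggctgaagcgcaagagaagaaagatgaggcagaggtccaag
Gm10076 had 20.7, 17.3 and 21.2 CPM in sham blood, 32.8, 22.8 and 35.8 in stroke blood and 13.4, 8.66 and 9.85 in brain, that is 2.68% to 4.09% of the Rpl41 count. The 3 groups did not overlap, and the group means of Rpl41 had the same order. Its log2 fold change was -1.68 against stroke blood (SE 0.26, adjusted p = 0.00161) and -1.02 against sham blood (SE 0.23, adjusted p = 0.0202), beside -1.37 and -0.85 for Rpl41. The second call was lost without sham blood replicate 1 (adjusted p = 0.0506) or 3 (0.0693) and without brain replicate 2 (0.0674) or 3 (0.0691). Without Gm26917, Gm36161 and Gm10076, a choice made after seeing the data, 2 members were higher and 6 lower in brain versus stroke blood. Of all genes tested 13.1% were higher and 7.86% lower. Versus sham blood 3 members were higher and 2 lower, where 9.75% and 3.67% of all genes were.

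**Figure D4:**
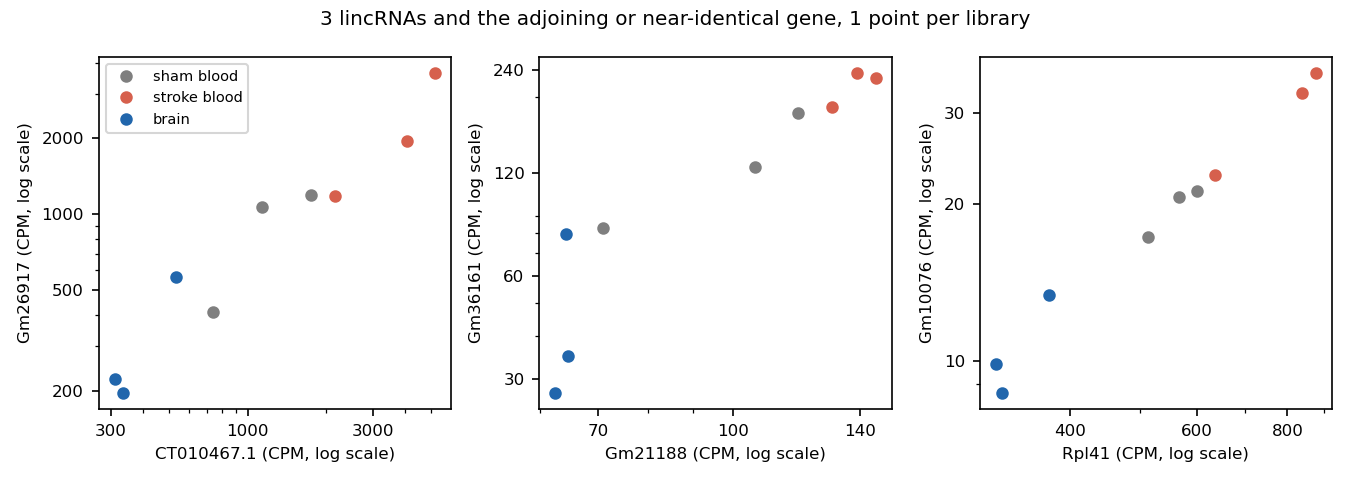
Level of Gm26917, Gm36161 and Gm10076 (vertical axes, CPM, log scale) against the adjoining rRNA gene CT010467.1, the 95.7% identical gene Gm21188 and the 99.5% identical gene Rpl41 (horizontal axes, CPM, log scale), 1 point per library. For Gm36161 and Gm10076 stroke blood lies highest and brain lowest, for Gm26917 sham blood overlaps both other groups, and in the middle panel brain replicates 2 and 3 (ratios 0.437 and 0.542) lie below brain replicate 1 (1.23) at nearly the same level of Gm21188.

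The remaining members that rose have no established role. Gm28875, a gene of 1 exon at chr12:104925501-104926689, had 98.0, 123 and 74.5 CPM in sham blood, 47.6, 34.5 and 51.6 in stroke blood and 128, 190.4 and 201 in brain. The groups did not overlap, with stroke blood lowest and brain highest. In brain its log2 fold change was 1.80 against stroke blood (SE 0.23, adjusted p = 0.00061) and 0.70 against sham blood (SE 0.24, adjusted p = 0.0752). Tmem250-ps, at chr2:26136814-26140521, followed the same order in the blood groups, with 55.9, 67.3 and 46.2 CPM in sham blood, 27.1, 21.8 and 30.7 in stroke blood and 54.9, 79.1 and 83.2 in brain. Stroke blood lay below every other library, while brain overlapped sham blood (log2 fold change 1.29, SE 0.23, adjusted p = 0.00285, and 0.24, SE 0.21, adjusted p = 0.46). Between stroke and sham blood edgeR gave -1.10 (SE 0.23) for Gm28875 and -1.05 (SE 0.21) for Tmem250-ps, both at an adjusted p = 0.285, and DESeq2 gave an adjusted p = 0.00234 for either.

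Gm5086, at chr13:97559971-97583996, had 5.35, 6.30 and 2.54 CPM in sham blood, 8.01, 8.44 and 7.56 in stroke blood and 10.3, 17.8 and 20.7 in brain. No group overlapped another. Its log2 fold change was 1.67 against sham blood (SE 0.40, adjusted p = 0.0256) and 0.87 against stroke blood (SE 0.30, adjusted p = 0.051). The former call was lost without sham blood replicate 3 (adjusted p = 0.0611), brain replicate 2 (0.0778) or brain replicate 3 (0.0862).

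**Figure D5:**
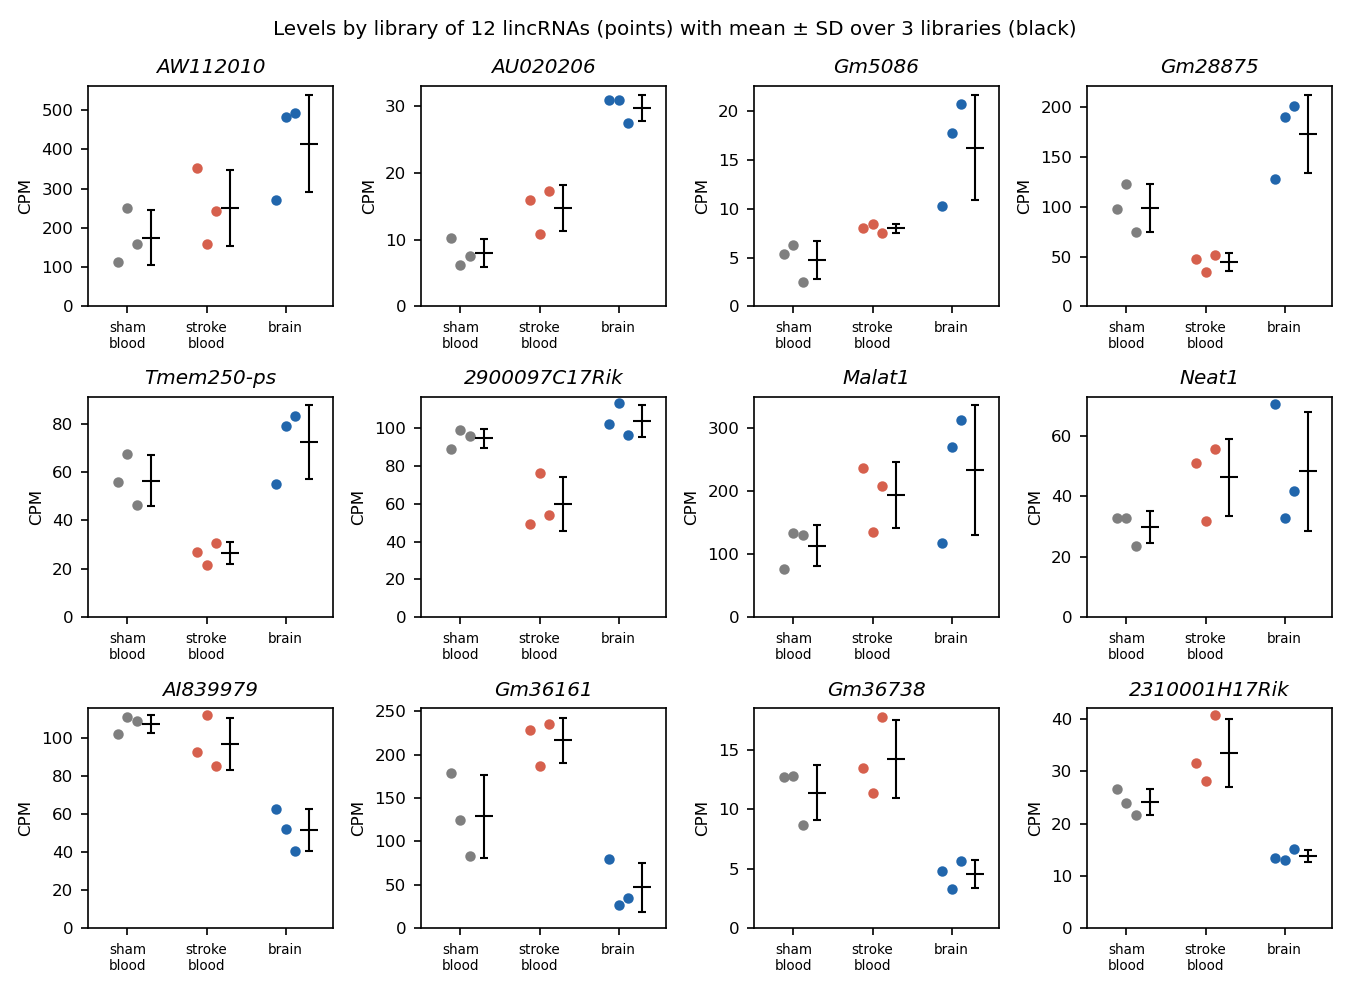
CPM of 12 lincRNAs in each library (coloured points, vertical axes from 0) by group, with the mean ± SD over the 3 libraries of the group in black. AW112010, AU020206 and Gm5086 are highest in brain, Gm28875, Tmem250-ps and 2900097C17Rik are lowest in stroke blood, and AI839979, Gm36161, Gm36738 and 2310001H17Rik are lowest in brain.

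Among members that fell, AI839979 and Gm36738 were called against both blood groups, like Gm36161 and Gm10076. AI839979, at chr5:31569595-31571397, had 102, 111 and 109 CPM in sham blood, 92.7, 112 and 85.4 in stroke blood and 62.6, 52.2 and 40.4 in brain. Blood groups overlapped each other, and brain lay below both. Its log2 fold change was -1.18 against sham blood (SE 0.18, adjusted p = 0.00489), kept in all 6 fits without 1 library, and -1.06 against stroke blood (SE 0.20, adjusted p = 0.00376), which no longer passed the fold threshold without stroke blood replicate 2 (adjusted p = 0.0135) or brain replicate 3 (-0.90). Gm36738, 1628 bases from Rac2 on chromosome 15 (chr15:78574411-78581616), had 12.7, 12.8 and 8.71 CPM in sham blood, 13.5, 11.4 and 17.8 in stroke blood and 4.85, 3.32 and 5.64 in brain. Again only brain stood apart (log2 fold change -1.79, SE 0.32, adjusted p = 0.003, and -1.43, SE 0.30, adjusted p = 0.0162), and the sham blood call was lost without sham blood replicate 2 (adjusted p = 0.0577) or brain replicate 2 (0.0503).

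2310001H17Rik, Gm34084 and 1700096K18Rik were called against stroke blood and not against sham blood, as were Gm26917, 1810058I24Rik, Gm28875 and Tmem250-ps, and the difference between the comparisons was not tested for any of them. 2310001H17Rik, 21878 bases from the lectin gene Clec2d, had 26.6, 24.0 and 21.7 CPM in sham blood, 31.5, 28.1 and 40.7 in stroke blood and 13.5, 13.0 and 15.2 in brain. No group overlapped another, and the log2 fold change was -1.43 (SE 0.22, adjusted p = 0.00149) against stroke blood and -0.91 (SE 0.18, adjusted p = 0.0135) against sham blood. Gm34084 had 21.1, 22.8 and 35.9 CPM in stroke blood and 13.9, 9.64 and 5.92 in brain (-1.60, SE 0.35, adjusted p = 0.00769), and 1700096K18Rik 7.67, 7.14 and 8.74 in stroke blood and 3.73, 2.30 and 3.38 in brain (-1.48, SE 0.33, adjusted p = 0.00922). Brain was below stroke blood in every library for both.

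The members that were not called had log2 fold changes from -1.38 (Gm10384) to 0.87 (Gm5086) in brain versus stroke blood (33 genes), from -1.57 (Gm26917) to 1.23 (Gdap10) in brain versus sham blood (37 genes) and from -1.10 (Gm28875) to 1.40 (Gm26917) in stroke versus sham blood (44 genes). Gdap10 had 13.5, 7.14 and 4.87 CPM in sham blood, 14.3, 9.42 and 13.3 in stroke blood and 23.8, 23.6 and 18.1 in brain. Its brain libraries lay above all blood libraries, but the difference from sham blood did not pass the test (adjusted p = 0.0527). Among the exon overlaps, 4 involved a gene above 1 CPM, namely 4833407H14Rik with Mirt1 (1008 bases, 2.94 CPM), Gm35154 with Gm48065 (553 bases, 4.21 CPM), Gm17354 with Cc2d1b (281 bases, 26.9 CPM) and Gm26637 with Eif2ak2 (174 bases, 26.7 CPM). None of these 4 members was called in any comparison.

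For each member the nearest protein-coding gene was found, at a median distance of 14316 bases and within 5000 bases for 14. The pair was convergent in 13 cases, divergent in 9 and overlapping in 4, while 11 members lay upstream and 7 downstream of a gene on the same strand. Over 35 members whose neighbour was tested, fold changes of member and neighbour in brain versus stroke blood had Pearson r = -0.101 and Spearman rho = 0.0344, with 20 of the same sign, and over the 12 pairs within 5000 bases r = 0.136; these are descriptions across genes, whose values share libraries. The closest divergent pairs were 5031425E22Rik and Kmt2e (172 bases apart, log2 fold change -0.94 and 0.08) and Gm43672 and Tbl1xr1 (510 bases, -0.94 and -0.47).

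Some neighbours changed more than the member. Spry2, a feedback inhibitor of growth factor signalling 209736 bases from Gm10076, rose by a log2 fold change of 4.55 in brain versus stroke blood (adjusted p = 0.000256). Oip5, 2010 bases from 1700020I14Rik, rose by 2.38 (adjusted p = 0.0286) at low levels, with means of 0.261 CPM in stroke blood and 1.54 in brain. The members Gm10076 and 1700020I14Rik had -1.68 and -0.52. Ms4a8a, 11663 bases from AW112010, fell by 1.85 on the log2 scale (adjusted p = 0.000343). Neighbours that did not pass the test in brain versus stroke blood were Syne3 of Gm28875 (0.34), Cnbd2 of 2900097C17Rik (-0.18), Slc4a1ap of AI839979 (0.04), Nacc2 of Tmem250-ps (-0.12), Rac2 of Gm36738 (-0.41), Jarid2 of Gm34084 (0.32), Frmd8 of Neat1 (-0.15) and Clec2d of 2310001H17Rik (-1.44). Those of Gm26917, Gm36161, 1810058I24Rik, Gm5086, 1700096K18Rik and Mir142hg (Esp38, Gm36079, Slc13a4, Gm10260, Cct8l1 and Tspoap1) were not tested, being below the filter on low counts.

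Over the 9 libraries, the genes of at least 5 CPM most correlated with Gm26917 in log2(CPM + 1) were Parvb (r = 0.980), Oxa1l (0.978) and Tiam1 (0.971), and with Malat1 Pex16 (0.921), Mrpl12 (0.918) and Manbal (0.918), out of 9042 genes. The points share libraries and group differences, and these correlations are descriptions.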

How the data were processed

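RNA was measured by bulk RNA-seq in 9 libraries of sorted mouse monocytes/macrophages. The deposited values are raw counts per gene, without normalization, which the authors made by FastQC in Chipster, HISAT2 mapping to GRCm38 and HTSeq counting; versions, annotation release and strand setting are not given in the sources used here. Total counts of 18475118 to 22623578 per library set the precision: 3 counts correspond to 0.133 to 0.162 CPM. Libraries were made by PCR without molecular identifiers, so this limit covers counting error only.

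Groups follow the labels for tissue and surgery; p-values measure the spread between libraries. GENCODE M21 was joined on Ensembl identifiers and holds 53706 of 53801. Members and lists were chosen with earlier results of these data known.

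Each pair of groups was fitted alone. The quasi-likelihood test of edgeR 4.0.16 (R 4.3.3) followed TMM scaling and filterByExpr at its defaults, and DEGs needed an adjusted p below 0.05 and a log2 fold change beyond 1. Levels are CPM of the library total. Copies were sought with BLAST 2.17.0 (at least 95% identity over 100 bases). Scripts used Python 3.11.15, pandas 2.3.3 and matplotlib 3.10.9, and the fit was tested on simulated data. Promoter, name and miRNA sequence tables are from RefSeq (GRCm38.p6).

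The text names the 10 most abundant members, for each comparison the 10 largest rises and falls among DEGs whose groups do not overlap, members that host a small RNA or are in the lists, the 3 genes on each side of 5 CPM, nearest protein-coding genes and the 3 genes most correlated with each of the 3 most abundant members; others are named as examples, chosen after their values were seen. A neighbouring gene that the rule names is not reported here. The lists were nuclear and chromatin lincRNAs, snoRNA hosts, miRNA hosts, immune-response lncRNAs and rRNA or satellite loci. Alternatives were DESeq2 1.42.0, RLE or library size only normalization, no filter, all libraries in a single fit, a replicate block, each library left out, no fold threshold and other member rules.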

Additional observations from a re-analysis of the deposited data

How the results depend on the processing

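For the 24 fold changes followed through every alternative, 259 values kept their direction and side of the threshold, 24 lost the call, 5 gained it and 0 changed direction. Of all 44 members, those not called turned direction in at least 1 alternative fit for 5 genes in brain versus stroke blood (such as Malat1, -0.15 to 0.45, Neat1, -0.46 to 0.12, and Gm14005, -0.60 to 0.03), 6 in brain versus sham blood and 9 in stroke versus sham blood, and 0 of those called did. Brain versus stroke blood, with 2 members higher and 9 lower, had 4 higher with library size only and 4 with no fold change threshold, 1 higher among members without exon overlap, 14 lower with no fold change threshold, and 9 higher and 26 lower at a mean of at least 1 CPM (162 genes). Leaving out each library in turn gave 2 to 3 higher and 9 to 11 lower. Brain versus sham blood, with 3 higher and 4 lower, had 7 higher and 7 lower at a mean of at least 1 CPM, 7 lower with no fold change threshold, 2 lower with library size only, and 2 lower among members other than Gm26917, Gm36161 and Gm10076, an alternative chosen after seeing the data; leaving out each library gave 1 to 4 higher and 1 to 6 lower. Stroke blood versus sham blood, with 0 and 0, had 2 lower with DESeq2 and 1 higher and 2 lower with no filter on low counts, and 0 in every fit without 1 library. Beyond the main fit, the shares of all genes called are not given here, so member counts of other fits cannot be set against them. Apart from the alternatives that test other genes or drop the fold threshold, the cause was not tested. Scaling by library size only moved the median log2 fold change of all genes by 0.155 and 0.122 in the brain comparisons, and turned Neat1 in brain versus stroke blood (0.06) and 1700020I14Rik in stroke versus sham blood (-0.03), neither called. With the replicate block, 2 were higher and 10 lower in brain versus stroke blood and 3 and 4 versus sham blood, and Gm5086 lost its call against sham blood (adjusted p = 0.057; over all its alternatives 0.000681 to 0.0862). The labels do not say that same-numbered libraries share mice, and the main fits did not pair them. Their deviations from the group means correlated between -0.0664 and 0.0646. With pooled brain libraries and few replicates, such values cannot decide whether same-numbered libraries share mice or handling. No member had fewer than 31 counts in any library.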
